A study of Mus musculus with 4 samples.

Results

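The antioxidant enzymes and metal-binding proteins described here are 10 genes, chosen by name: Gpx1, Gpx3, Sod1, Sod2, Sod3, Cat, Hmox1, Mt1, Mt2 and Cp. They were read on every probe set that the platform annotation assigns to 1 of these symbols alone, which gave 22 probe sets for 10 of the 12394 named genes on the array. The RNA came from myogenic cells of C57BL/6 mice aged 8 to 12 weeks, in which hind limb muscle had been damaged by cardiotoxin (a venom peptide that kills fibres and spares satellite cells). The 4 groups, all injured and with no uninjured group used here, are days 2, 3, 5 and 14 after the injection, each with 1 Affymetrix mouse 430A array. The cells were taken directly from muscle without culture. The sample descriptions mention SM/C-2.6, an antibody against satellite cells, and state neither the sort nor the number of animals per array.

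Superoxide leaks from the respiratory chain and is made by the oxidases of inflammatory cells. Superoxide dismutases turn it into hydrogen peroxide, with SOD1 in the cytosol, SOD2 in the mitochondrial matrix and SOD3 outside the cell, and catalase and the selenium-containing glutathione peroxidases then remove the peroxide. Haem oxygenase 1 breaks down haem and releases iron, metallothioneins bind zinc and copper through their cysteines, and ceruloplasmin carries copper and oxidises iron as it leaves cells. In injured muscle these proteins meet haem and myoglobin released from dying fibres, infiltrating phagocytes, and myoblasts that change their mitochondrial activity as they differentiate.

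Levels are given as MAS5 signals in arbitrary units, after each array was brought to the same trimmed mean, and days are compared within 1 probe set only. The median of all such values, 43.0, served as a floor to which smaller signals were raised. A ratio with 1 day at the floor is thus a lower bound, and with both days there the gene was not measured. A gene was called higher or lower at 2-fold or more. With 1 array a day there is no replicate check, no test and no p-value. Log2 ratios of different probe sets of 1 gene differed with an SD of 0.36, 0.37 and 0.32 at the 3 successive steps and of 0.55 between the first and last array. That spread leaves out the variation between animals and labellings.

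The labelled cell type was checked against its markers. Of 14 satellite cell and myoblast markers, 12, 12, 14 and 14 were above the floor on days 2, 3, 5 and 14. None of 10 neutrophil and none of 6 erythroid markers was above it on any array. Of 18 macrophage markers, 4, 8, 14 and 13 were above the floor on days 2, 3, 5 and 14, and Ptprc, the pan-leukocyte antigen CD45, read 13.1, 14.1, 59.7 and 54.5. Of 12 endothelial markers, 1, 1, 4 and 7 were above it, with Pecam1, Cdh5, Tie1, Emcn and Flt1 under the floor on every array. In a bulk sample, fewer cells of a type and less RNA per cell cannot be told apart.

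Most of the 10 genes read highest at the end of the course. Day 14 held the highest signal of 6 of the 10, day 2 of 2 (Gpx1 and Sod1), day 3 of Sod2 and day 5 of Cat. Among the 7930 genes that passed the floor somewhere in the course, 35.9% were highest on day 14 and 26.9% on day 2. On the probe sets that stand for the genes, the plot by day shows Gpx1 lower on each later array. Sod1 and Sod2 were lower on day 14 than on day 2, but Sod1 was higher on day 14 than on day 5 and Sod2 higher on day 3 than on day 2. Gpx3, Sod3, Hmox1, Mt1, Mt2 and Cp are at their highest on day 14.

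**Figure D1:**
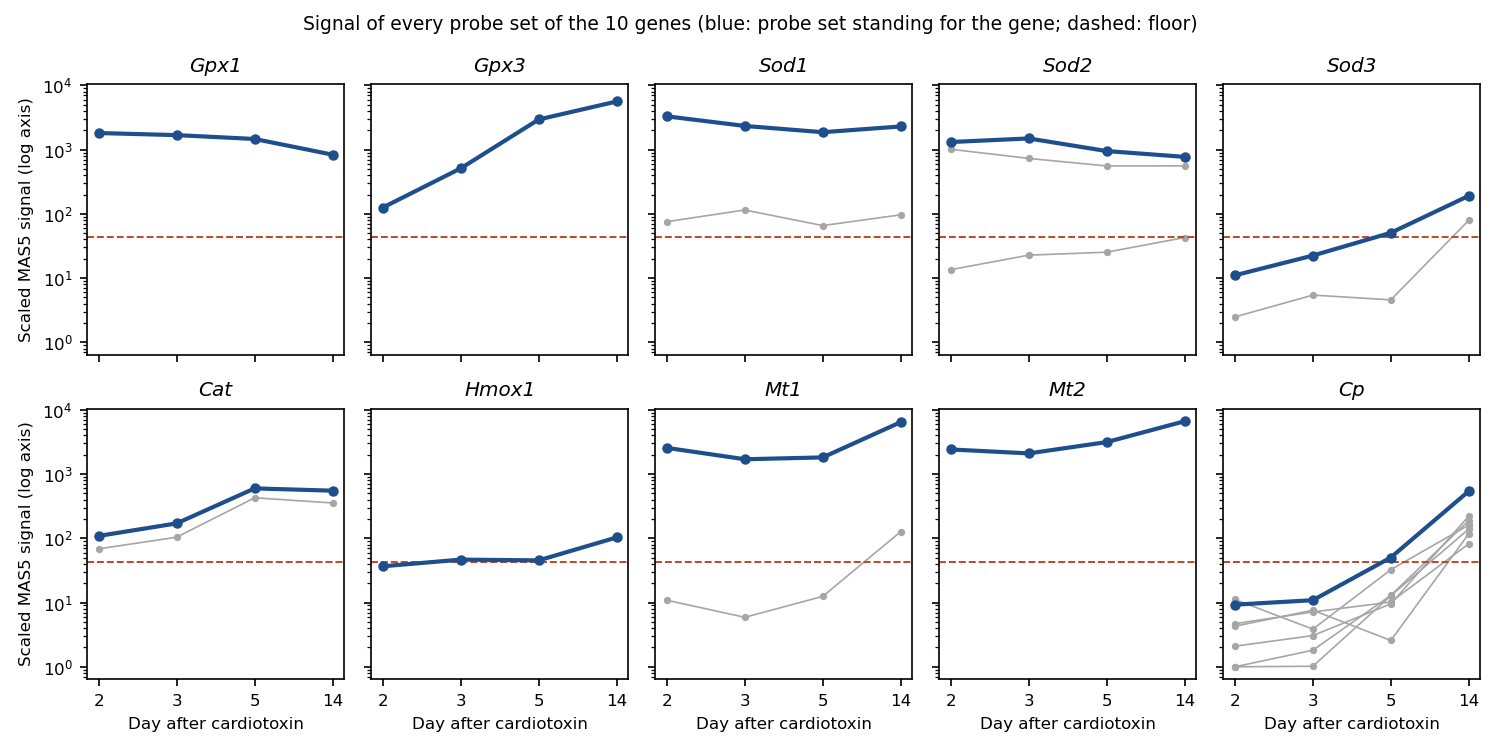
Scaled MAS5 signal (log axis) of all 22 probe sets of the 10 genes on days 2, 3, 5 and 14 after cardiotoxin, 1 array a day, with no error bars because no day has a replicate. Blue marks the probe set that stands for the gene, grey the others and the dashed line the floor of 43.0, and values under 1 are drawn at 1. Gpx3 reads 125, 511, 2942 and 5607 in order of days, Cp leaves the floor on days 5 and 14, and the blue lines of Gpx1, Sod1 and Sod2 stay between 771 and 3292.

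On day 3 against day 2, 8 of the 10 genes were measured and 1, Gpx3, was higher, while 6.68% of all 6991 measured genes were higher. None of the 10 was lower, against 1.8% of all genes. On day 5 against day 3, 2 of 10 were higher, Gpx3 and Cat, and none lower, against 11.6% of 7523 genes higher and 5.97% lower. On day 14 against day 5, 5 of 10 were higher (Cp, Sod3, Mt1, Hmox1 and Mt2) and none lower, against 4.81% of 7709 genes higher and 3.1% lower. Between the first and last array, day 14 against day 2, 7 of 10 were higher and 1, Gpx1, was lower, against 22.8% of 7668 genes higher and 14.8% lower. The median log2 ratio of the 10 genes on day 14 against day 5 was 1.005, beside 0.01 for all genes, and on day 14 against day 2 it was 1.40 beside 0.20. At the 2 earlier steps the medians were 0.00 beside 0.06 on day 3 against day 2 and 0.16 beside 0.06 on day 5 against day 3. The genes were chosen with earlier results of these arrays known, so these counts describe the 10 genes and do not test them.

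**Figure D2:**
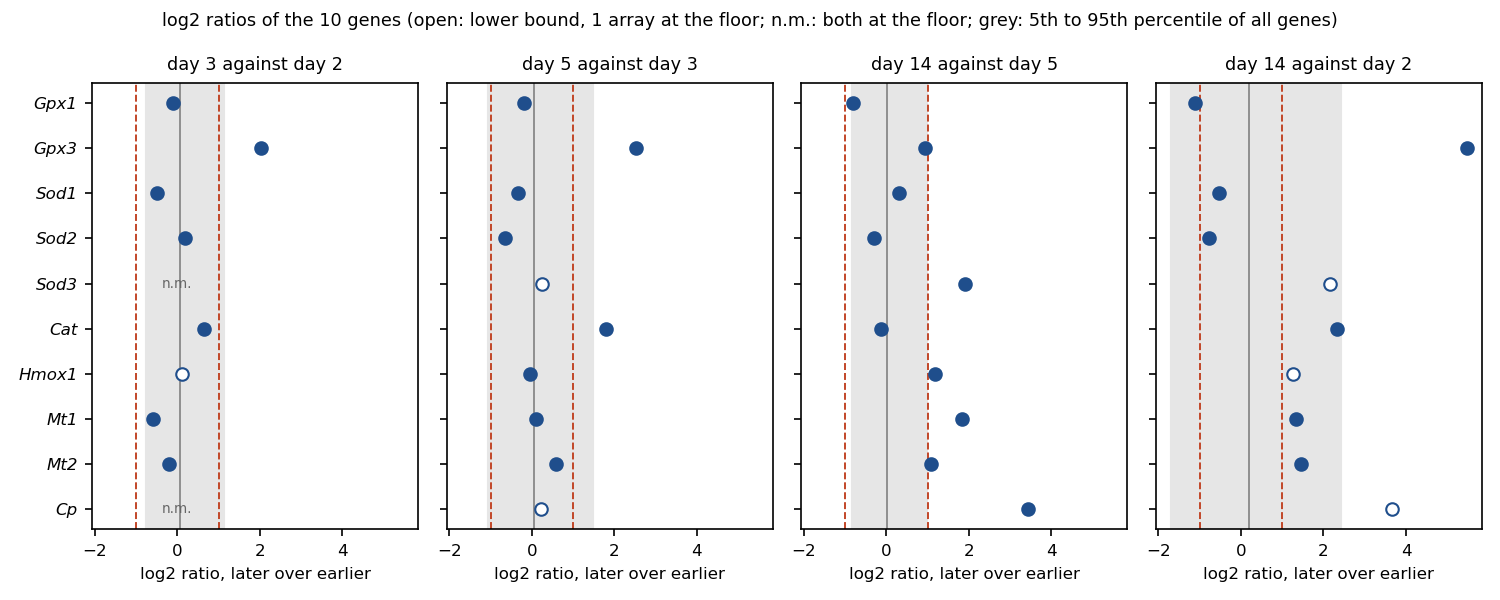
Log2 ratio of each of the 10 genes, later over earlier day, in 4 comparisons, with dashed lines at 2-fold, a grey line at the median of all genes and a grey band from their 5th to their 95th percentile. Open circles are lower bounds with 1 array at the floor and n.m. means not measured. Gpx3 lies above the band on day 3 against day 2, Gpx3 and Cat on day 5 against day 3, and Cp, Sod3, Mt1, Hmox1 and Mt2 lie above it on day 14 against day 5.

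The pairs of days that skip a step share their arrays with the comparisons above. On day 5 against day 2, Gpx3 was 23.5-fold and Cat 5.49-fold higher and none of the 10 was lower, against 19.8% of 7445 genes higher and 11.4% lower. Mt1 read 1815 on day 5 against 2552 on day 2, and Mt2 3142 against 2412, so the 2 metallothioneins had opposite signs there, with neither past 2-fold.

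On day 14 against day 3, 7 of the 10 were higher and 1 lower, against 16.3% of 7774 genes higher and 11.5% lower. Cp was at least 12.6-fold, Gpx3 10.97-fold, Sod3 at least 4.44-fold, Mt1 3.78-fold, Cat 3.23-fold, Mt2 3.17-fold and Hmox1 2.22-fold higher. Gpx1 was 2.02-fold lower and Sod2 1.93-fold lower, which was short of a call, while Sod1 read 2291 on day 14 against 2335 on day 3.

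The share of higher calls among all calls depended on the scaling of the arrays. On day 3 against day 2 it was 78.8%, against 52.6% with the values as deposited and 20.9% with arrays set to a common median. On day 5 against day 3 the shares were 66.1%, 87.4% and 41.0% in the same order. On day 14 against day 5 they were 60.8%, 50.5% and 48.3%, and on day 14 against day 2 they were 60.7%, 62.2% and 23.5%. Relative to the median of all genes, the numbers of the 10 genes at least 2-fold higher were 1, 2 and 5 at the 3 successive steps under every one of the 4 scalings tried. On day 14 against day 2 that number was 7, and 6 after quantile normalization. By the same measure, none of the 10 was at least 2-fold lower at the 3 successive steps. On day 14 against day 2 the number lower was 1, with 2 under a common median and 0 after quantile normalization. The trimmed-mean, deposited and common-median scalings differ by 1 factor per array, which subtracting the median largely removes. Their agreement was thus nearly fixed in advance, and only quantile normalization could differ by more. The share of all genes past either mark was not computed.

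Gpx3, the glutathione peroxidase secreted into plasma and extracellular fluid, had the widest course of the 10. Its probe set read 125 on day 2, 511 on day 3, 2942 on day 5 and finally 5607 on day 14, so each array was above the one before. It was 4.08-fold higher on day 3 than on day 2 and 5.76-fold higher on day 5 than on day 3. On day 14 it was 1.91-fold above day 5, short of a call. Day 14 was 44.7-fold above day 2 (log2 ratio 5.48), rank 17 of 7668 measured genes, and under 8 other settings that log2 ratio ranged from 4.64 to 5.51. The summed signal of 14 fibroblast markers was 2989, 7465, 20493 and 30644 on days 2, 3, 5 and 14. At the 3 successive steps 3 of 8, 9 of 11 and 3 of 12 measured ones were higher, beside 6.68%, 11.6% and 4.81% of all genes. In 2, 3 and 2 of these ratios 1 day was at the floor. On day 14 against day 5 their median log2 ratio was 0.09, beside 0.93 for Gpx3. Of these 14, the numbers above the floor were 6, 8, 11 and 11, and Clec3b and Dpp4 were under it on every array. The summed signal of the 18 macrophage markers, of which Itgam, Cd163, Marco and Msr1 were under the floor throughout, was 378, 1345, 4210.0 and 3566. The part of such cells in the Gpx3 signal was not tested.

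Gpx1, the glutathione peroxidase of cytosol and mitochondria that is present in nearly all cells, took the opposite course. It read 1811 on day 2, 1680.2 on day 3, 1463 on day 5 and finally 834 on day 14, each array below the one before. No successive step reached 2-fold, the largest being 1.75-fold lower on day 14 than on day 5. Day 14 was 2.17-fold below day 2 (log2 ratio -1.12), a call that ended after quantile normalization at a log2 ratio of -0.95. Gpx1 and Gpx3 therefore stood at opposite ends of the order: Gpx1 had its highest signal on the day on which Gpx3 had its lowest.

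Cat, the catalase of peroxisomes, changed mainly between day 3 and day 5. Its main probe set read 109 on day 2, 171 on day 3, 598 on day 5 and finally 551 on day 14, and its second probe set read 68.6, 104, 427 and 355. Both probe sets put days 5 and 14 well above days 2 and 3. On day 5 Cat was 3.50-fold higher than on day 3, with log2 ratios of 1.81 and 2.04 in the 2 probe sets. Day 14 lay 1.09-fold below day 5 and 5.06-fold above day 2. The 3'-end probe set of Gapdh divided by its 5'-end one, which reports on RNA length, gave 2.17, 1.88, 2.87 and 2.84 on days 2, 3, 5 and 14, and Actb gave 1.80, 2.20, 2.19 and 2.14. On day 5 against day 3, the summed signal of the 14 fibroblast markers was 20493 against 7465 (9 of 11 measured were higher). That of the 18 macrophage markers was 4210.0 against 1345 (9 of 14), and 11.6% of all genes were higher. In 3 of these fibroblast and 6 of these macrophage ratios 1 day was at the floor. The part of RNA length and of such cells in the Cat signal was not tested.

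The promoters of the 2 genes called on day 5 against day 3 are shown because both hold the box CCAAT, a common promoter element bound by NF-Y, more than 1 time. They come from RefSeq with GRCm38.p6, run from 250 bases before to 50 bases after the gene's start, and are written 5' to 3' on the gene's strand with each CCAAT, or its reverse ATTGG, in capitals. The window of Cat (chr2:103485104-103485403, minus strand) has 4 matches and that of Gpx3 (chr11:54902604-54902903, plus strand) has 2. Of 32851 such windows of 300 bases, 37.4% hold at least 1 match, 11.7% at least 2 and 1.06% at least 4. Of the 8 members with a window, 5 hold CCAAT, among them Sod1 and Sod2, which were not called in any comparison with the trimmed-mean scaling. A match is a string of letters and does not show that a factor binds.
Cat: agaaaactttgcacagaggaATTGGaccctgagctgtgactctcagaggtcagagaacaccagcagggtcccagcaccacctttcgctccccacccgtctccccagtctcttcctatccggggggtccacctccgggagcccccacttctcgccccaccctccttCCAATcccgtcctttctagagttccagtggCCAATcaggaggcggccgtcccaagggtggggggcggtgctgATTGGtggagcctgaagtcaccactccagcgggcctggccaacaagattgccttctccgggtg
Gpx3: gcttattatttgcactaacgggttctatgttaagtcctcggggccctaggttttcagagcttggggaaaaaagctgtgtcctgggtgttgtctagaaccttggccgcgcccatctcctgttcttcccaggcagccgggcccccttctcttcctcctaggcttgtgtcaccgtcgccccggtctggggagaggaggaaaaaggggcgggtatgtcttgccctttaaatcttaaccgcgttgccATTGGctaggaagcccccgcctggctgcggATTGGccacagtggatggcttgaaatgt

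The superoxide dismutases Sod1 and Sod2 were not called in any comparison with the trimmed-mean scaling, and Sod3 was called on day 14. With a common median, Sod1 and Sod2 were called lower on day 14 against day 2, at log2 ratios of -1.36 and -1.61. Under that scaling 36.0% of all genes were lower there. Sod1, the copper and zinc enzyme of the cytosol, read 3292 on day 2, 2335 on day 3, 1865 on day 5 and finally 2291 on day 14 on its main probe set, which put day 2 highest and day 5 lowest. Its second probe set read 75.6, 115, 65.7 and 96.6, so day 3 was highest there. No comparison of Sod1 reached 2-fold with the trimmed-mean scaling, and for day 3 against day 2 the probe sets gave log2 ratios of -0.50 and 0.60. Sod2, the manganese enzyme of mitochondria, read 1312 on day 2, 1491 on day 3, 948 on day 5 and finally 771 on day 14, and 1012, 729, 556 and 558 on a second probe set. The remaining probe set lay under the floor on every array. Days 5 and 14 were below days 2 and 3 on both measured probe sets of Sod2, and the largest successive step was 1.57-fold lower on day 5 than on day 3, short of a call.

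Sod3, the secreted dismutase that attaches to heparan sulfate in the matrix, appeared late. Its main probe set read 11.1 on day 2 and 22.4 on day 3, both under the floor, then 50.7 on day 5 and 191 on day 14. Its second probe set read 2.49, 5.44, 4.59 and 79.4, above the floor on day 14 alone. Day 14 was 3.76-fold above day 5 (rank 78 of 7709 genes) and at least 4.44-fold above day 2. The second probe set gave a bound of 0.89 in log2 for both, under 2-fold because its signal on day 14 lies close to the floor.

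Hmox1, the inducible haem oxygenase, stayed near the floor. It read 36.7 on day 2, 46.6 on day 3, 45.3 on day 5 and finally 103 on day 14, so day 14 stood apart and the other 3 arrays lay close together. Day 14 was 2.28-fold above day 5 and at least 2.40-fold above day 2. The first call ended with arrays set to a common median (log2 ratio 0.97) and with a pseudocount in place of the floor (0.96). The second ended at 0.65 with a common median and at 0.80 after quantile normalization. Macrophages are a known source of Hmox1. The summed signal of the 18 macrophage markers was 3566 on day 14, against 4210.0 on day 5 and 378 on day 2, and the part of such cells in the Hmox1 signal was not tested.

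Mt1 and Mt2, the widely expressed metallothioneins that buffer zinc and copper and are induced by metals, glucocorticoids and stress, were highest together on day 14. Mt1 read 2552 on day 2, 1699 on day 3, 1815 on day 5 and finally 6417 on day 14. Mt2 read 2412, 2096, 3142 and 6639 on the same days. In both genes day 3 was lowest and day 14 highest, and they differed in the order of days 2 and 5. Mt1 was 3.54-fold and Mt2 2.11-fold higher on day 14 than on day 5, and 2.51-fold and 2.75-fold higher than on day 2. A second Mt1 probe set read 10.9, 5.89 and 12.5 on days 2, 3 and 5 and 127 on day 14, a bound of 1.56 in log2 for day 14 against day 5, where the main one gave 1.82. The main Mt1 probe set belongs to a class that can match several transcripts, and the part of related metallothioneins in its signal was not tested. The Mt2 call against day 5 ended at a log2 ratio of 0.99 with the values as deposited and at 0.97 with a common median. The calls against day 2 ended with a common median, at 0.49 for Mt1 and 0.62 for Mt2.

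The 2 metallothionein genes lie side by side on the same strand, with starts 6471 bases apart, and their promoters are shown because both genes were called on day 14 against day 5. In each, capitals mark TGCNCNC on either strand, a looser form of the core of the metal response element read by the zinc sensor MTF-1. The Mt1 window (chr8:94178839-94179138, plus strand) has 3 matches and the Mt2 window (chr8:94172368-94172667, plus strand) has 6. At least 3 matches stand in 7.10% of the 32851 windows and at least 6 in 0.225%, while 51.0% hold at least 1.
Mt1: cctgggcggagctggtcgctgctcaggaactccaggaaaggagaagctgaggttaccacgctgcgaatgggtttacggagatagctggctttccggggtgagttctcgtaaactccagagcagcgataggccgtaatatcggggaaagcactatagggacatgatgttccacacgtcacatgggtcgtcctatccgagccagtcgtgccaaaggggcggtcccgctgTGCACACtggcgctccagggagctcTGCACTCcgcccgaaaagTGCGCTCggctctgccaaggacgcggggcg
Mt2: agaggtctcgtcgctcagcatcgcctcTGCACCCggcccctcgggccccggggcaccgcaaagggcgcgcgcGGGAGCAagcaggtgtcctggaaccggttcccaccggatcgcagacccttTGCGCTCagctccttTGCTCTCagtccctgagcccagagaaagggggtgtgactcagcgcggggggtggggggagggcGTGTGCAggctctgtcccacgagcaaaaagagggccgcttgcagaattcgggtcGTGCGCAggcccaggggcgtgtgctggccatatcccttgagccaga
The stricter forms TGCACNC and TGCGCNC, which overlap with TGCNCNC by construction, were found 2 times and 1 time in Mt1 and 2 times each in Mt2. Not all 6 marked matches of Mt2 are thus of a stricter form. Over all windows, 12.6% hold at least 1 TGCACNC and 1.58% at least 2, and 15.4% hold at least 1 TGCGCNC and 4.20% at least 2. Among the 8 genes with a window in the table, Cp alone of the others held TGCNCNC, in 1 of its 2 windows. Neither Cp window held a stricter form. The antioxidant response element TGACNNNGC, read by NRF2, was found on either strand in the windows of Mt2 and Sod1, and in 12.4% of all windows. The hypoxia response element ACGTG was found in those of Gpx1 and Mt1 and in 19.6% of all windows. Hmox1 and Sod3 have no window in the table.

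Cp, the copper ferroxidase ceruloplasmin, had the largest step of the 10 genes on day 14 against day 5. Its main probe set read 9.27 on day 2, 10.9 on day 3, 50.2 on day 5 and finally 541 on day 14. The other 6 probe sets of Cp were all under the floor on days 2, 3 and 5 and read from 81.9 to 221 on day 14, so all 7 put day 14 above the other days. Day 14 was 10.8-fold above day 5, rank 7 of 7709 genes, and at least 12.6-fold above day 2. The 7 probe sets gave log2 ratios from 0.93 to 3.43 for day 14 against day 5, the 6 lower ones being bounds. The median over probe sets was still a call, as was every other setting tried, with log2 ratios from 1.41 to 3.65. The summed signal of 12 endothelial markers was 1552 on day 14 against 416 on day 5, and 5 of 7 measured were higher. That of the 14 fibroblast markers was 30644 against 20493, with 3 of 12 measured higher and a median log2 ratio of 0.09. Over all genes 4.81% were higher. In 3 of the endothelial and 2 of the fibroblast ratios 1 day was at the floor. The part of such cells in the Cp, Sod3, Mt1 and Mt2 signals was not tested.

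**Figure D3:**
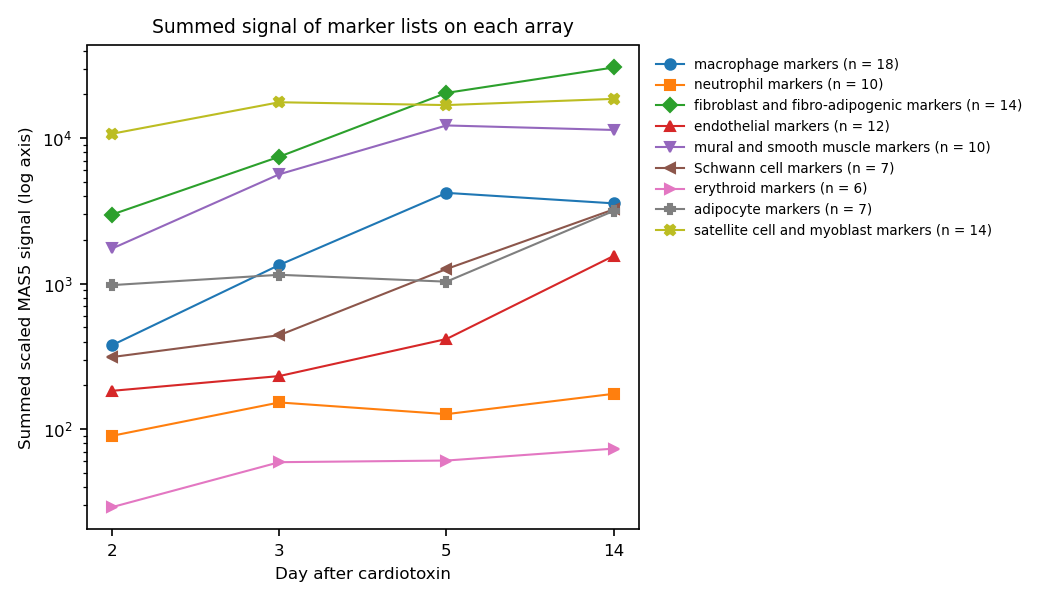
Summed scaled MAS5 signal (log axis) of the marker lists on the array of each day, with the number of markers on the array, 1 array a day and no error bars. The fibroblast list is at 2989 on day 2 and 30644 on day 14, the endothelial list is at 416 on day 5 and 1552 on day 14, and the neutrophil and erythroid lists stay under 175 in sum.

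Several of these lists rest on a few genes. The 10 mural and smooth muscle markers summed to 1745, 5653, 12241 and 11397 on days 2, 3, 5 and 14, mostly from Acta2, the smooth muscle actin that early muscle cells also make, which read 6176 on day 14. The 7 Schwann cell markers summed to 313, 442, 1262 and 3241, of which Pmp22, a peripheral myelin protein found in other cells as well, made 2972 on day 14, while S100b, Foxd3 and Gfap stayed under the floor throughout. The 7 adipocyte markers summed to 978, 1151, 1032 and 3164, of which the lipase Lpl made 2412 and the fatty acid carrier Fabp4 707 on day 14, with Adipoq, Cidec, Lep, Retn and Pparg under the floor on every array. Fabp4 is also among the 12 endothelial markers, which summed to 1552 on day 14. The 14 satellite cell and myoblast markers summed to 10738, 17673, 16898 and 18641.

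For the 8 genes called in any comparison, the genes of most similar course were sought over the 4 days, by the root mean square difference of log2 signals centred on each gene's mean. The gene closest to Gpx3 was Selenop, the plasma selenium carrier, at a difference of 0.12, with signals of 61.5, 244, 1741 and 2950.2 on days 2, 3, 5 and 14. Egr2, an immediate early transcription factor (0.22), and Mmp2, a matrix protease (0.23), followed. Closest to Cp were Calcr, the calcitonin receptor of quiescent satellite cells (0.08), Col15a1, a basement membrane collagen (0.10), and Hsd11b1, which regenerates active glucocorticoid (0.24). Calcr read 10.4, 10.3, 49.5 and 615, near the floor on day 5 as Cp was. Col15a1 read 59.0 and Hsd11b1 72.3 on day 5. Cp and these genes were under the floor on days 2 and 3, so the likeness rests on days 5 and 14, mainly on day 14. Closest to Cat were Itm2c (0.02), the phospholipid flippase Atp11a (0.09) and the matrix protein Sparc (0.09).

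Closest to Mt2 were Mpv17, a protein of the inner mitochondrial membrane (0.06), Ccnl1, which encodes cyclin L1 (0.06), and Emp2 (0.07). Closest to Mt1 were Etfbkmt (0.11), the deubiquitinase Zranb1 (0.18) and the thrombin receptor F2r (0.19), and Mt1 and Mt2 differed from each other by 0.33. Among the 10 genes, Mt1 was nearest to Sod3 (0.32, close to that 0.33) and Mt2 to Hmox1 (0.24). Both distances depend on the floor, to which Sod3 was raised on days 2 and 3 and Hmox1 on day 2. Without it, day 14 was 17.2-fold above day 2 for Sod3 and 2.51-fold for Mt1. Closest to Sod3 were the complement protease C1ra (0.02), P2ry14 (0.08) and Gpr155 (0.08). Sod3 and these genes were under the floor on days 2 and 3 and near it on day 5, so the likeness rests mainly on day 14. Closest to Hmox1 were the RNA-binding protein Zfp36l2 (0.07), Hexim1 (0.08) and Sertad1 (0.09), and closest to Gpx1 were Cmas (0.04), the proton pump subunit Atp6v1b2 (0.05) and Dpagt1 (0.05). Each search ran over 4 arrays and between 5915 and 6980 candidate genes, and the likeness was not tested.

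**Figure D4:**
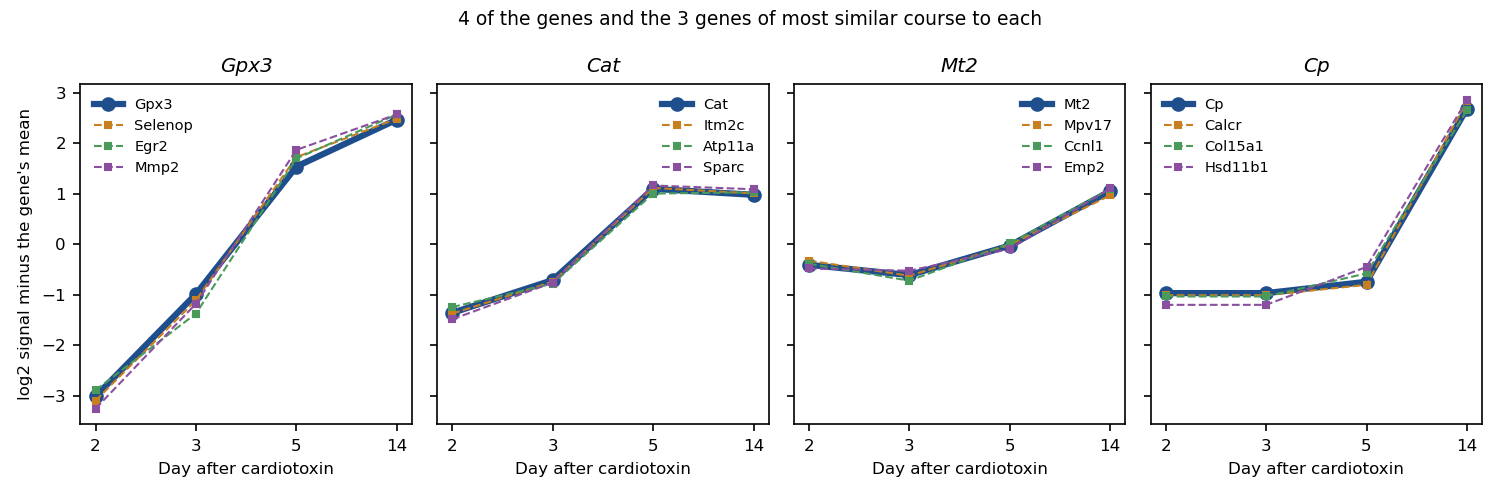
Log2 signal minus the gene's own mean, with values under the floor set to it, on days 2, 3, 5 and 14 for Gpx3, Cat, Mt2 and Cp (blue) and the 3 genes of most similar course to each (dashed), 1 array a day. Gpx3 and Selenop run together at a root mean square difference of 0.12, and Cp and Calcr, both under the floor on days 2 and 3, at 0.08.

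Related gene lists are given beside the shares over all genes, which were 6.68% higher and 1.8% lower on day 3 against day 2, 11.6% and 5.97% on day 5 against day 3, and 4.81% and 3.1% on day 14 against day 5. Of 8 measured genes of glutathione synthesis and recycling, 1 was lower on day 3 than on day 2 (Gclm, a subunit of the rate-limiting ligase, 2.10-fold) and 1 was lower on day 5 than on day 3 (Gsr, glutathione reductase, 2.09-fold), and none was called on day 14 against day 5. The list's median log2 ratios at the 3 steps were -0.07, -0.01 and -0.13, beside 0.06, 0.06 and 0.01 for all genes. Among 16 thioredoxin, peroxiredoxin and methionine sulfoxide repair genes, 1, 3 and 4 were higher at the 3 steps, beside 6.68%, 11.6% and 4.81% of all genes, and none was lower. Those called included Txnip, the thioredoxin-binding protein, which read 68.8, 62.6, 459 and 1455 on days 2, 3, 5 and 14, and Sesn1, a sestrin, at 131, 172, 420 and 987. Srxn1, sulfiredoxin, was 2.38-fold higher on day 14 than on day 5.

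Of 16 other glutathione peroxidases and transferases, 4 were higher and 1 lower on day 3 against day 2, beside 6.68% and 1.8% of all genes. On day 5 against day 3 it was 3 and 1 of 16, beside 11.6% and 5.97%, and on day 14 against day 5 it was 2 and none of 14, beside 4.81% and 3.1%. Gpx7, a peroxidase of the endoplasmic reticulum, read 113, 361, 1149 and 624 on days 2, 3, 5 and 14 and was 3.19-fold and 3.18-fold higher at the first 2 steps. Gstm1 was 3.13-fold and Gstt1 2.45-fold higher on day 14 than on day 5. Gsto1 was 2.22-fold lower on day 3 than on day 2 and 4.76-fold lower on day 14 than on day 2. The Gstm genes are near-identical copies, so the value of Gstm1 is uncertain.

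Selenoproteins are the family that Gpx1 and Gpx3 belong to. Of 18 measured selenoproteins and selenocysteine synthesis genes, 4 were higher and 1 lower on day 3 against day 2, 3 higher and 2 lower on day 5 against day 3, and 1 higher and none lower on day 14 against day 5. The shares over all genes were 6.68% and 1.8%, 11.6% and 5.97%, and 4.81% and 3.1%. Selenop was 3.97-fold higher at the first step and 7.13-fold at the second, and Dio2, the deiodinase that activates thyroid hormone, 3.92-fold and 4.19-fold. Selenoh was 2.67-fold lower on day 5 than on day 3, and Sephs2, which makes the selenium donor, was 2.18-fold lower on day 3 than on day 2. The medians were 0.24, 0.23 and -0.08.

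NRF2 is the main factor of the antioxidant response. Of 27 measured regulators and targets of NRF2, 2 were higher and 1 lower on day 3 against day 2 and 3 higher and 1 lower on day 5 against day 3, and of 28 on day 14 against day 5 it was 5 and 1. Over all genes 6.68% were higher and 1.8% lower at the first step, 11.6% and 5.97% at the second, and 4.81% and 3.1% on day 14 against day 5. The medians were 0.02, 0.24 and 0.06. The higher genes included regulators and a detoxifying enzyme: Maff and Mafk, partners of NRF2, were 5.15-fold and 2.91-fold higher on day 14 than on day 5, Ephx1, an epoxide hydrolase, 4.30-fold, and Bach1, a repressor of Hmox1, 4.07-fold higher on day 5 than on day 3. Nqo1 and Slc7a11, common readouts of NRF2, were under the floor on every array. Tkt and Pgd, of the pentose phosphate pathway that makes NADPH, were 4.72-fold and 2.54-fold lower on day 14 than on day 2.

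**Figure D5:**
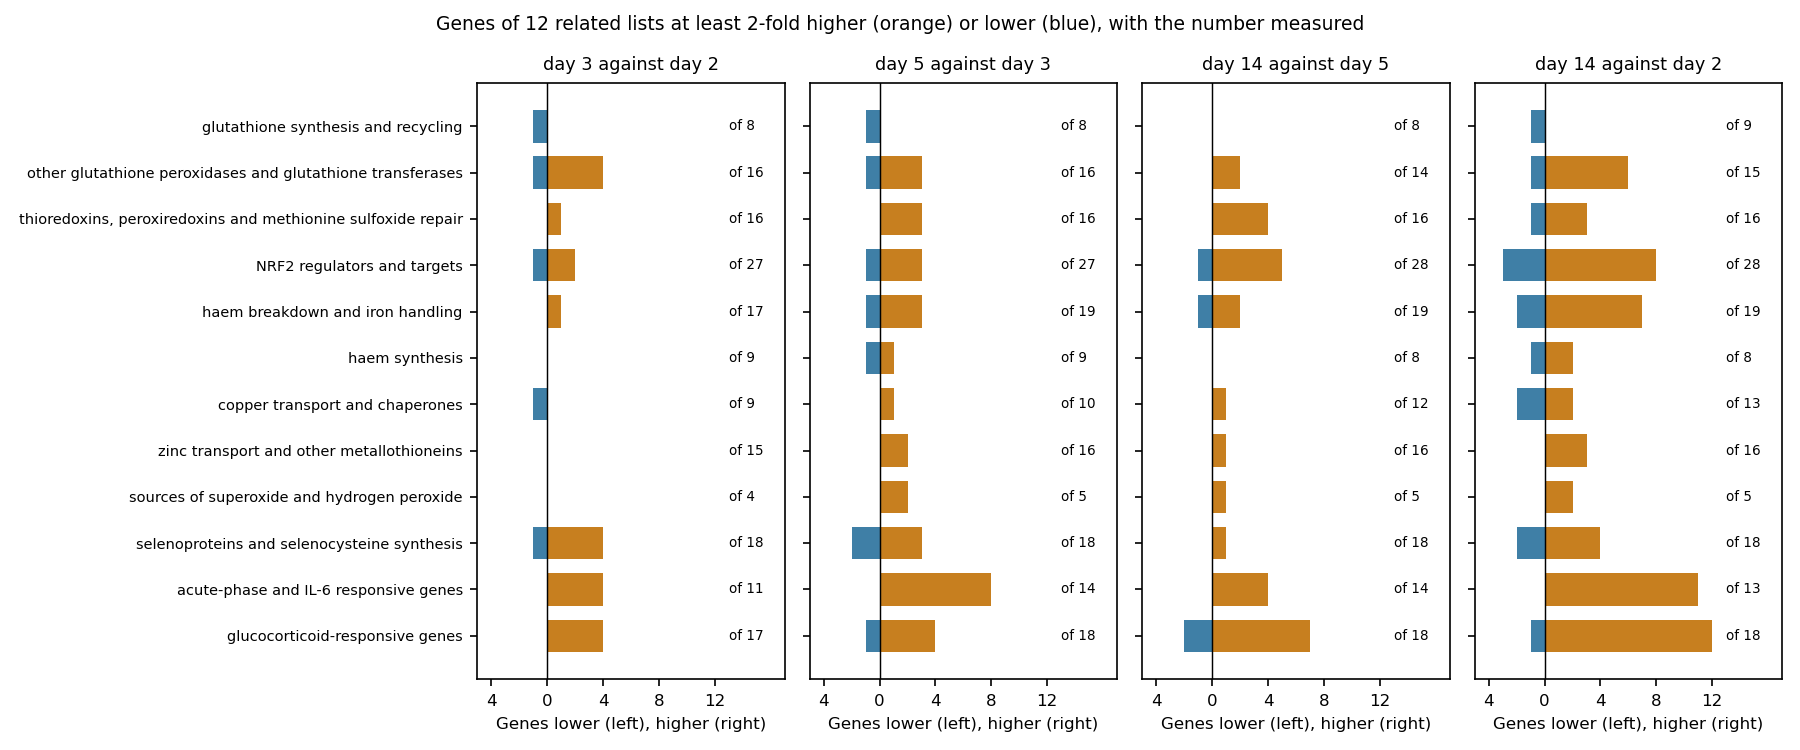
Number of genes at least 2-fold higher (orange, right) or lower (blue, left) in 12 related lists for 4 comparisons, with the number measured at the right of each bar and no error bars, as each day has 1 array. On day 14 against day 2, where 22.8% of all genes were higher and 14.8% lower, the acute-phase list has 11 of 13 measured genes higher. The glutathione synthesis list has 1 of 9 lower and none higher there.

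Hmox1 and Cp both act in iron handling. Of 17 haem breakdown and iron genes measured on day 3 against day 2, 1 was higher, and of 19 at each later step, 3 were higher and 1 lower on day 5 against day 3 and 2 were higher and 1 lower on day 14 against day 5. These counts stand beside 6.68% of all genes higher at the first step, 11.6% higher and 5.97% lower at the second, and 4.81% and 3.1% on day 14 against day 5. Slc40a1, ferroportin, the iron exporter that works with ceruloplasmin, read 10.5, 52.6, 609 and 290.4 on days 2, 3, 5 and 14, and so peaked before Cp. Tfrc, the transferrin receptor that takes up iron, read 2077, 1316, 490.2 and 329, each array below the one before, and was 2.69-fold lower on day 5 than on day 3. Blvrb, a biliverdin reductase that acts after haem oxygenase, was 2.61-fold higher on day 5 than on day 3. Bmp6, which controls hepcidin in liver, was 6.68-fold higher on day 14 than on day 5. Heph, hephaestin, the membrane-bound relative of ceruloplasmin, reached 83.4 on day 14, stayed below the floor earlier, and was not called.

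Copper and zinc transport lists stand beside 6.68% of all genes higher and 1.8% lower on day 3 against day 2, 11.6% and 5.97% on day 5 against day 3, and 4.81% and 3.1% on day 14 against day 5. Of 9, 10 and 12 measured copper genes at the 3 steps, 1 was lower at the first (Sco2, 2.76-fold), and Steap4, a metal reductase, was at least 5.69-fold higher on day 5 than on day 3 and 2.06-fold higher on day 14 than on day 5. Ccs and Atox1, the chaperones that deliver copper to Sod1 and to the copper pumps, read 168, 171, 271 and 288 and 551, 600, 691 and 570.3 on days 2, 3, 5 and 14. Of 16 zinc genes measured on day 14 against day 5, Slc39a14, a zinc and iron importer, was higher (2.40-fold, from a signal of 1130.5 on day 14 against 471 on day 5) and none lower. Mtf1, the metal sensor that acts on metallothionein promoters, read 57.9, 19.4, 87.0 and 55.5 on days 2, 3, 5 and 14, and was at least 2.02-fold higher on day 5 than on day 3. The zinc exporter Slc30a1, another target of Mtf1, read 42.4, 39.8, 53.9 and 56.1, close to the floor. Mt3 and Mt4 were under the floor on every array.

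Sources of superoxide and peroxide were thinly measured. Of 12 such genes on the array, 5 were above the floor on any day. Cybb, the catalytic subunit of the phagocyte oxidase, read between 1.20 and 3.22, far under the floor, and Ncf1, Ncf4 and Rac2 were also under it throughout. Cyba, the partner subunit, read 135, 174, 416 and 319 on days 2, 3, 5 and 14. Aox1, aldehyde oxidase, was 2.09-fold higher on day 5 than on day 3 and 4.08-fold higher on day 14 than on day 5. Of 9 measured haem synthesis genes, Ppox was 2.06-fold higher and Alad 2.44-fold lower on day 5 against day 3, beside 11.6% and 5.97% of all genes, and none was called at the other 2 steps.

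Glucocorticoids and IL-6 are known inducers of Mt1 and Mt2, and IL-6 also of Cp in liver. Of 11 measured acute-phase and IL-6 responsive genes, 4 were higher on day 3 against day 2, of 14 on day 5 against day 3, 8 were higher, and of 14 on day 14 against day 5, 4 were higher, with none lower at any of the 3 steps. The shares of all genes higher were 6.68%, 11.6% and 4.81%. Their medians were 0.90, 1.17 and 0.47. Of the 22 genes of this list on the array, Lcn2, Saa1, Saa2, Hpx, Serpina3n, Fgb and Fga were under the floor on every array. Cebpd read 133, 128, 861 and 2673 on days 2, 3, 5 and 14, and Socs3 179, 461, 2442 and 3208. Of 17 measured glucocorticoid-responsive genes 4 were higher on day 3 against day 2. Of 18 at the later steps, 4 were higher and 1 lower on day 5 against day 3, and 7 were higher and 2 lower on day 14 against day 5. The shares of all genes were again 6.68%, 11.6% and 4.81% higher, and 1.8%, 5.97% and 3.1% lower. Their medians were 0.17, 0.60 and 0.65. Zbtb16 and Klf15 of the glucocorticoid list were under the floor on every array. Hsd11b1 was 9.91-fold, Klf9 3.48-fold and the receptor gene Nr3c1 2.64-fold higher on day 14 than on day 5, while Fkbp5 and Tsc22d3 were not called at that step.

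Over the whole course the comparison of day 14 with day 2 gave the following counts, beside 22.8% of all genes higher and 14.8% lower. Of 13 measured acute-phase and IL-6 responsive genes 11 were higher, and of 18 measured glucocorticoid-responsive genes 12 were higher and 1 lower. Their medians were 3.04 and 1.66, beside 0.20 for all genes. The genes of these lists under the floor on every array, named above, are not in these counts. Of 9 glutathione synthesis genes 1 was lower (Gsr, at least 3.13-fold) and none higher, with a median of -0.46, and of 16 thioredoxin and peroxiredoxin genes 3 were higher and 1 lower (Prdx3, the mitochondrial peroxiredoxin, 2.77-fold), with a median of 0.06. The other glutathione peroxidases and transferases had 6 of 15 higher and 1 lower, the NRF2 list 8 of 28 higher and 3 lower, and iron handling 7 of 19 higher and 2 lower. The selenoprotein list had 4 of 18 higher and 2 lower, copper transport 2 of 13 each way, zinc transport 3 of 16 higher and none lower, haem synthesis 2 of 8 higher and 1 lower, and the sources of superoxide 2 of 5 higher and none lower. No difference between lists was tested.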

How the data were processed

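Gene expression was measured on 4 arrays, 1 each for days 2, 3, 5 and 14. The deposited values are signal intensities per probe set on a linear scale, made with MAS5 per the submitters' processing notes. RNA was labelled with biotin by a small sample assay, per the labels' protocols, which amplifies RNA and favours probe sets near the 3' end. The sources used here give no settings, scaling target or detection calls.

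The 2% trimmed mean over all 22690 probe sets was made equal between arrays, which took factors of 0.997, 1.13, 0.917 and 0.976 in order of days. Smaller values were raised to the floor of 43.0 and log2 ratios were taken. The share of probe sets above the floor was 45.0%, 49.5%, 52.0% and 53.5%. A gene was represented by its probe set of highest mean log2 signal and called at 2-fold. Of the probe sets, 20393 had 1 gene symbol in the platform annotation and 691 had several and were left out. The gene ID of 20364 was found in the RefSeq table of GRCm38.p6, and no symbol changed. Having 1 array a day limits the precision, and no read depth applies. No protein sequences were used, so the planned comparison of proteins was not made.

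The 10 genes, the 12 related lists, the 9 marker lists and the alternatives were chosen with earlier results of these data known. Named genes were all 10 members, up to 4 called genes in each direction of each list and comparison, up to 3 markers of highest signal, and the 3 genes of most similar course to each called member among genes above the floor on the same days. Some genes named though not called were added after their values were seen. These were Heph, Ccs, Atox1, Slc30a1, Mt3, Mt4, Cybb, Ncf1, Ncf4, Rac2, Nqo1, Slc7a11, Fkbp5, Ptprc, Pecam1 and other listed genes under the floor. Ratios and calls were tested on simulated arrays with known changes well past 2-fold, in genes that started well above the floor. That simulation did not cover changes near 2-fold or genes that start near the floor. Python 3.11.15, numpy 2.4.6, pandas 2.3.3 and matplotlib 3.10.9 were used.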

Additional observations from a re-analysis of the deposited data

How the results depend on the processing

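Of 16 called ratios of the 10 genes in the 4 main comparisons, 10 were called the same way under all other settings that measured them and none changed sign. The other 6 were those of Hmox1 and Mt2 on day 14 against both days and of Mt1 and Gpx1 on day 14 against day 2. Of the ratios short of a call, 5 were called under some setting. No paired analysis was possible because each day has 1 array and nothing can be left out.

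With arrays set to a common median, the median log2 ratio of all genes moved to -0.41 on day 3 against day 2 and to -0.57 on day 14 against day 2, beside 0.06 and 0.20. Under it 1 of the 10 genes was lower on day 3 against day 2 (Mt1), beside 11.6% of all genes. On day 14 against day 5, 3 were higher, beside 3.82%. On day 14 against day 2, 4 were higher and 3 lower, beside 11.1% and 36.0%. With the values as deposited the median of all genes on day 5 against day 3 was 0.33, beside 0.06. After quantile normalization 0 of the 10 genes were lower on day 14 against day 2, beside 16.8% of all genes. With a floor at the 25th percentile 2 were higher on day 3 against day 2, beside 15.1% of all genes. On day 5 against day 3 that floor gave 4 higher, beside 13.6%. A floor at the 75th percentile gave 3 higher on day 14 against day 5, beside 3.54%, as fewer genes were measured. At 1.5-fold, 2 were higher and 1 lower on day 3 against day 2, beside 17.8% and 9.1% of all genes. Also at 1.5-fold, 1 was lower on day 5 against day 3, 1 on day 14 against day 5 and 2 on day 14 against day 2. Beside these, 17.1%, 10.3% and 24.3% of all genes were lower. Leaving out probe sets that can match several transcripts, an alternative chosen after seeing the data, changed none of these counts by more than 1.5 times. Of 864 counts of list genes under other settings, 227 differed by more than 1.5 times, and of 381 list medians 39 moved by more than the spread between probe sets. Over all genes, 467 were higher and 126 lower on day 3 against day 2, 874 and 449 on day 5 against day 3, 371 and 239 on day 14 against day 5, and 1751 and 1134 on day 14 against day 2. In that order of comparisons, the counts were 1546 and 220, 1447 and 755, 845 and 468, and 3181 and 1268 with the lower floor. With the higher floor they were 129 and 60, 336 and 244, 151 and 100, and 613 and 736. At 1.5-fold they were 1243 and 636, 1725 and 1290, 942 and 791, and 2705 and 1862. With a common median they were 223 and 846, 588 and 846, 281 and 301, and 841 and 2732. With the values as deposited, 288 were lower on day 3 against day 2, and 1381 were higher and 199 lower on day 5 against day 3. With a pseudocount in place of the floor, 821 were higher on day 3 against day 2. The planned comparison of protein sequences was not run. Signals of Hmox1, Sod3 and Cp before day 14 lie at or near the floor, so their ratios are the least certain.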
